A study of Arabidopsis thaliana with 14 samples.

Results

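The circular RNAs (circRNAs) of 34 nuclear genes of A. thaliana were examined, 12 of the Calvin cycle with the RuBisCO activase, 13 of photorespiration, and 9 of the FtsH and Clp proteases of plastids. A circRNA was given to a gene when the deposited list named that gene as its parent. Of the 34 genes, 29 were parent genes, and together they gave 81 of the 5861 circRNAs on the list. The Calvin cycle genes gave 36 of these circRNAs, the photorespiration genes 31 and the protease genes 14. The 5 genes without a listed circRNA were AT5G36700 (PGLP1), AT1G80380, AT1G50250 (FTSH1), AT1G06430 (FTSH8) and AT3G48870 (HSP93-III).

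The 14 samples came from Columbia-0 plants, each with 1 library of total RNA depleted of ribosomal RNA and digested with RNase R, an enzyme that degrades linear RNA and leaves most circular RNA. They were 1 pool of whole plants from 7 growth stages, called the mixed sample here, and 13 separate samples. These were whole plants of the 4 growth stages 1.14, 3.90, 6.50 and 8.00, and the 5 organs flowers, leaves, roots, siliques and stems at stage 6.50. The rest were plants at stage 3.90 under heat, salt or drought stress with their unstressed control. For this stress series the study's sample list gives aerial parts, while its methods give whole plants. The deposited data were 1 list for all 14 samples, with 1 value for each circRNA, and 1 list for the mixed sample of 1217 circRNAs and 8987 back-spliced reads. No value was given for a separate sample and no condition was repeated, so neither the conditions nor the groups of genes could be compared against a replicate spread, and all values below are descriptions without a test.

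The Calvin cycle fixes carbon dioxide in the chloroplast: RuBisCO adds it to ribulose bisphosphate, the product is reduced to sugar phosphate, and the acceptor is regenerated. Where RuBisCO takes up oxygen instead, photorespiration recovers the carbon through chloroplasts, peroxisomes and mitochondria. FtsH and Clp are ATP-dependent proteases, which remove damaged membrane proteins such as those of photosystem II and degrade soluble proteins of the plastid. A circRNA can arise when the end of an exon is joined to the start of the same or an upstream exon (back-splicing). Per the study, introns and intergenic regions also give circRNAs. A circRNA is recognised by reads that cross its junction.

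The value listed for a circRNA is a number of back-spliced reads. For the 24 circRNAs of the 34 genes that were in the mixed list, it equalled the count of the mixed sample, and for the other 57 it is taken as a sum over the separate samples, as the study's own counts, held here in part, showed for circRNAs outside the mixed list. The 2 kinds of value come from different libraries, so an order between a circRNA in the mixed list and one outside it, and any median or minimum over both, describes the listed value only. Over the 81 circRNAs the value had a median of 4 and a range of 2 to 23, against a median of 5 and a range of 2 to 413 over the 4405 nuclear circRNAs listed as exonic. Of the 81, 18 stood at the minimum of 2 reads (22.2%, against 23.9%) and 12 had 10 or more (14.8%, against 21.2%). With so few reads, the absence of a circRNA from the list says only that fewer than 2 back-spliced reads were listed.

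Parent genes were common among the 34 genes, and most had several circRNAs. The share with a circRNA was 85.3%, against 11.7% of the 27444 nuclear protein-coding genes. All 12 Calvin cycle genes, 11 of 13 photorespiration genes and 6 of 9 protease genes were parent genes. More than 1 circRNA was listed for 22 of the 29 parent genes (75.9%), against 25.3% of the 3216 nuclear protein-coding parent genes. The largest number was 6, reached by RCA, AT3G60750 (TKL1, a transketolase) and FTSH11. The 29 parent genes had a median of 7 exons, against 8 over all nuclear protein-coding parent genes. The 34 genes were chosen with earlier results of these data known, so both shares may come from the choice itself and are not read as enrichment. In other genes of the same pathways, given at the end, the share with a circRNA was 39.2%. The 34 genes were also not matched to other genes on expression, and its part in these shares was not tested.

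**Figure D1:**
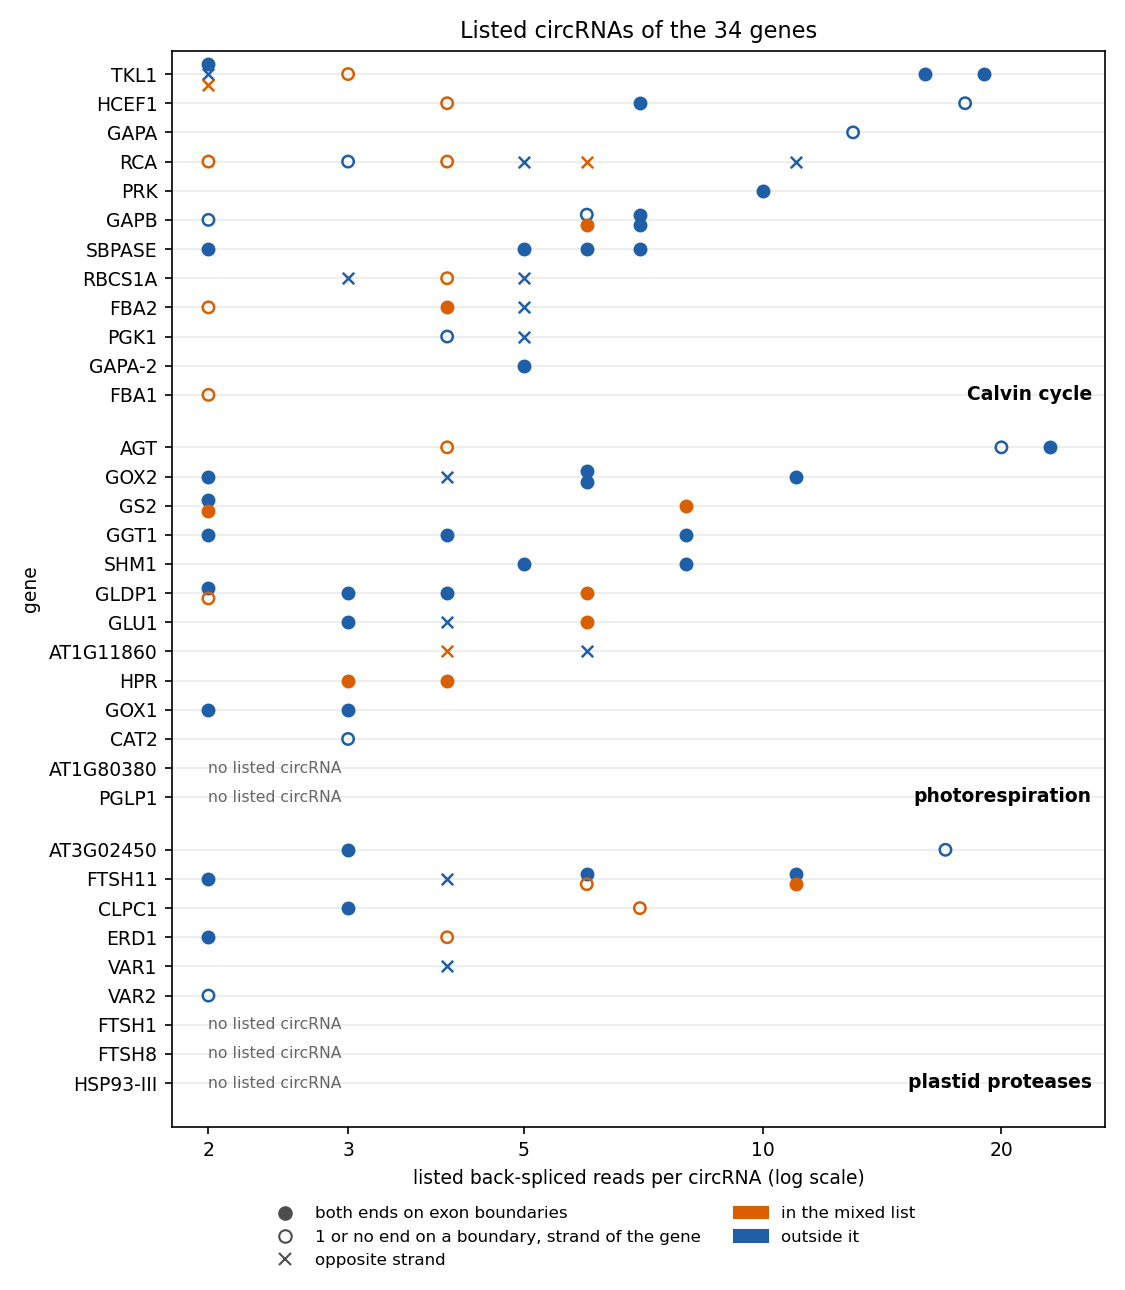
Listed back-spliced reads (log scale) of each of the 81 circRNAs, with 1 row for each of the 34 genes in 3 groups; filled circles have both ends on annotated exon boundaries, open circles 1 or no end, crosses lie on the opposite strand, and orange marks circRNAs of the mixed list. The highest values were 19 in the Calvin cycle group (TKL1), 23 in photorespiration (AGT) and 17 among the proteases (AT3G02450), and 5 genes have no circRNA.

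Each circRNA was set against the exons of its parent gene. Both ends lay exactly on annotated exon boundaries in 44 of the 81 circRNAs, or 54.3% (95% Wilson interval 43.5% to 64.7%), against 65.5% of nuclear exonic circRNAs. By group, it was so for 14 of 36 circRNAs of the Calvin cycle (38.9%, 24.8% to 55.1%), 23 of 31 of photorespiration (74.2%, 56.8% to 86.3%) and 7 of 14 of the proteases (50.0%, 26.8% to 73.2%). The intervals of the Calvin cycle and photorespiration did not overlap over all 81, but within each list they did. In the mixed list the interval of the Calvin cycle reached up to 47.7% and that of photorespiration down to 35.4%, and outside the list that of the Calvin cycle reached up to 66.5% and that of photorespiration down to 56.6%. The intervals cover counting error only, treat circRNAs of 1 gene as independent, which they are not, and take reads as independent molecules, which PCR reads without molecular identifiers need not be. When only circRNAs with at least 5 reads were kept, photorespiration remained the highest, with 55.0% of 20 in the Calvin cycle, 83.3% of 12 in photorespiration and 50.0% of 6 among the proteases. In other genes of the same pathways, given at the end, photorespiration was the lowest group instead.

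The 44 circRNAs on exon boundaries were built from internal exons, as were nearly all such circRNAs on the list. None contained the first or the last exon of its gene, against 1.8% and 1.35% of the 2884 nuclear exonic circRNAs with both ends on boundaries. No splice site lies before a first exon or after a last one, and find_circ requires the bases of both. The absence in 44 circRNAs therefore says nothing about these genes in particular. They spanned a median of 2.5 exons and 327 exonic bases, against 2 exons and 381 bases. A single exon was circularised in 13 of them (29.5%, against 25.3%), and the exonic length was a multiple of 3 in 20 (45.5%, against 44.5%). The start codon was contained in 5 of the 44 (11.4%, against 7.04%), from GOX1, GOX2 (2 circRNAs), AGT and CLPC1.

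The other 37 circRNAs had 1 end on a boundary (6) or none (31). Of the 37, 22 lay within a single exon, and 15 were listed on the strand opposite to their parent gene. Over all 81 circRNAs the opposite strand took 18.5% (11.6% to 28.3%), against 13.6% of nuclear exonic circRNAs, and it took 9 circRNAs of the Calvin cycle, 4 of photorespiration and 2 of the proteases. All 81 junctions were flanked by AG before the start and GT after the end on the listed strand, as were all 4405 nuclear exonic circRNAs, since find_circ keeps only junctions with these bases. Exon boundaries have these bases on the strand of the gene, so circRNAs listed on the opposite strand could hardly have both ends on them. None of the 15 did, nor did any of the 601 among all nuclear exonic circRNAs, and this says nothing about the members in particular.

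**Figure D2:**
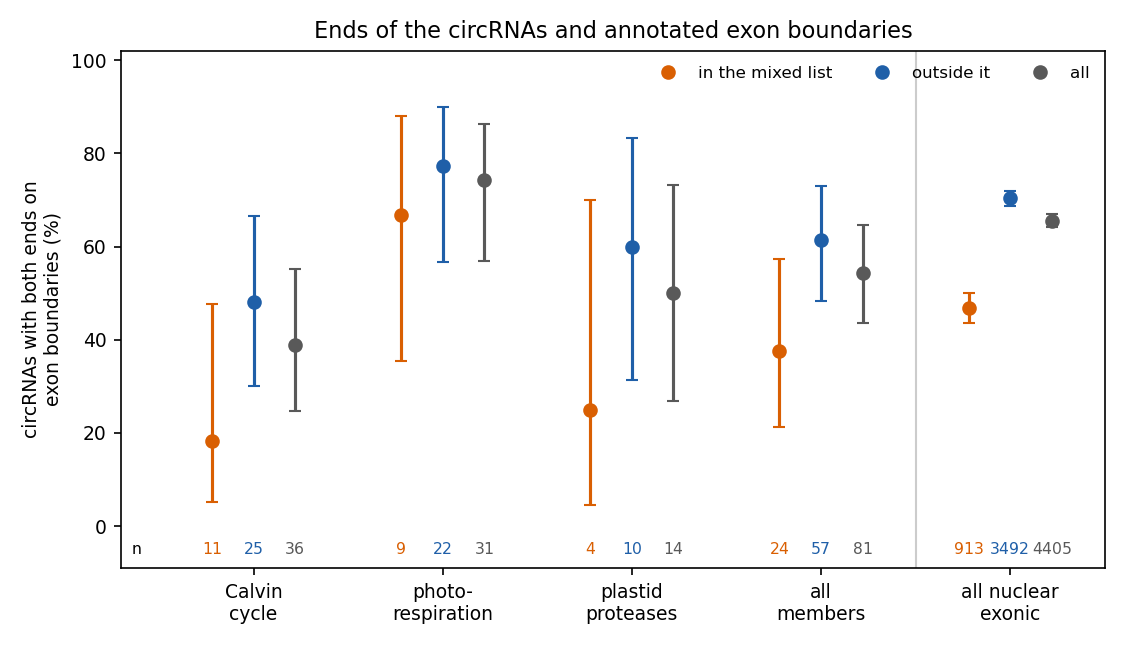
Percentage of circRNAs with both ends on annotated exon boundaries in the 3 gene groups, in all members and, right of the line, in all nuclear exonic circRNAs, for circRNAs in the mixed list (orange), outside it (blue) and all (grey), with 95% Wilson intervals and the number of circRNAs (n) under each point. In each column the point of the mixed list is the lowest, and photorespiration (74.2%) stands above the Calvin cycle (38.9%).

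By group, the mixed list held 11 of 36 circRNAs in the Calvin cycle (30.6%), 9 of 31 in photorespiration (29.0%) and 4 of 14 among the proteases (28.6%). The share over all 81 was 29.6% (20.8% to 40.3%), against 20.7% of nuclear exonic circRNAs. By gene, 2 parent genes had circRNAs only in the mixed list (FBA1 and HPR), 14 had some in it and some outside, and 13 had them only outside. A place in the mixed list does not mean absence from the separate samples, since Ath_circ_FC0021 of HPR also had reads there. The median genomic length of the members' circRNAs was 170.5 bp in the mixed list and 477 bp outside it, and over all nuclear exonic circRNAs it was 178 bp in the list and 566.5 bp outside. Both ends lay on exon boundaries in 37.5% (21.2% to 57.3%) of those in the mixed list and 61.4% (48.4% to 72.9%) outside it. Over all nuclear exonic circRNAs these shares were 46.8% in the list and 70.4% outside, which is the same direction as in the members. The mixed sample was 1 library of pooled RNA, and per the study's methods it was sequenced on another instrument, with shorter reads, than the separate samples. Its pooled stages, instrument and read length cannot be told apart.

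**Figure D3:**
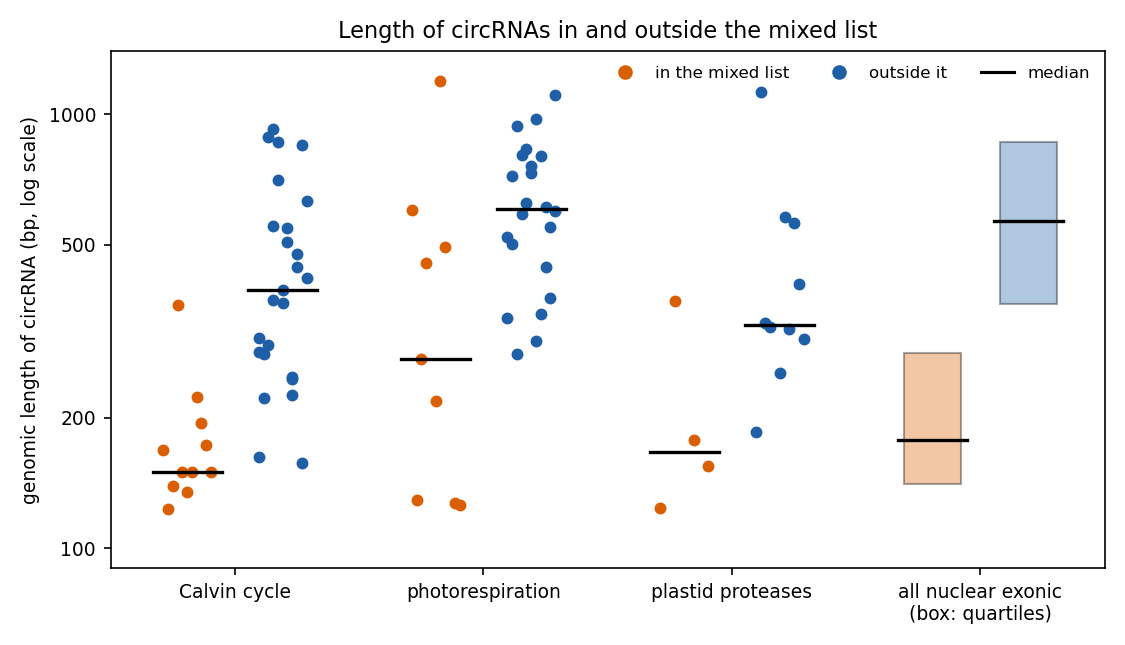
Genomic length (bp, log scale) of each circRNA of the 3 gene groups in the mixed list (orange) and outside it (blue), with black lines at the medians and, at the right, the medians and quartile boxes of all nuclear exonic circRNAs. Medians in the mixed list and outside it were 150 and 394 bp in the Calvin cycle, 273 and 604.5 bp in photorespiration, and 166.5 and 327 bp among the proteases.

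Within the Calvin cycle, 5 of the 12 genes gave no circRNA with both ends on exon boundaries. They were RCA and RBCS1A of the carboxylation step, and GAPA, PGK1 and FBA1 of other steps. RCA, the activase that frees RuBisCO of inhibitory sugar phosphates, had 6 circRNAs with 11, 6, 5, 4, 3 and 2 reads. Ath_circ_FC1584 with 11 reads, Ath_circ_FC1583 with 5 reads and, in the mixed list, Ath_circ_FC5048 with 6 reads were listed on the opposite strand. On the strand of the gene, Ath_circ_FC1585 with 3 reads began on the start of exon 2, and Ath_circ_FC5274 and Ath_circ_FC5639, with 4 and 2 reads, were in the mixed list. Of the 6, 4 lay within exon 5 or exon 6 of 7. RBCS1A, a small subunit of RuBisCO, had 3 circRNAs with 5, 4 and 3 reads, and Ath_circ_FC0901 and Ath_circ_FC0902, with 5 and 3 reads, were on the opposite strand. Ath_circ_FC5242, with 4 reads, was in the mixed list. The small subunit is encoded by several similar genes, and the 30 bases on each side of the junction of Ath_circ_FC0901 also matched other places in the genome with at most 2 differing bases.

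The reduction step was represented by 4 genes. GAPB, a subunit of the chloroplast glyceraldehyde-3-phosphate dehydrogenase, had 5 circRNAs, and those from exons 3 to 7 (Ath_circ_FC0645) and exons 4 to 5 (Ath_circ_FC0646) had 7 reads each. Ath_circ_FC5016, exon 4 alone, had 6 reads in the mixed list. Ath_circ_FC0648 with 6 reads and Ath_circ_FC0647 with 2 reads had no end on a boundary. GAPA, the other kind of subunit, had 1 circRNA of 13 reads (Ath_circ_FC2183), which lay inside its last exon with no end on a boundary, and its copy GAPA-2 had exon 3 as a circRNA with 5 reads (Ath_circ_FC0329). PGK1, a phosphoglycerate kinase, had Ath_circ_FC1945 with 5 reads on the opposite strand and Ath_circ_FC1944 with 4 reads, whose 3′ side of 30 bases occurred at 2 places in the genome.

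The regeneration genes held the highest values of the cycle. TKL1, which moves carbon units between sugar phosphates, gave Ath_circ_FC2454 with 19 reads, exon 4 alone (chr3:22455026-22455308), and Ath_circ_FC2453 with 16 reads, exons 3 to 5. Ath_circ_FC2452 combined the start of one with the end of the other, exons 3 to 4, and had 2 reads. The remaining 3 of TKL1 all lay inside exon 7, the last. They were Ath_circ_FC5481 with 3 reads and, on the opposite strand, Ath_circ_FC2455 and Ath_circ_FC5707 with 2 reads each. HCEF1, the chloroplast fructose-1,6-bisphosphatase, had 18 reads for Ath_circ_FC2373, which began on the start of exon 2 but ended 199 bases before the end of exon 3, 7 reads for Ath_circ_FC2374 (exon 3) and 4 reads for Ath_circ_FC5308 inside exon 1.

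SBPASE, the sedoheptulose-1,7-bisphosphatase, was the only Calvin cycle gene with more than 1 circRNA and all of them on exon boundaries. Its 4 circRNAs had 7 reads (exons 3 to 6), 6 reads (exons 4 to 5), 5 reads (exons 2 to 5) and 2 reads (exon 5), and none was in the mixed list. The first of them, Ath_circ_FC2405, carried 591 coding bases for residues 81 to 277 of 393. PRK, the phosphoribulokinase that completes the cycle, had exon 4 as its circRNA, with 10 reads (Ath_circ_FC0596). The aldolases FBA2 and FBA1 had few reads, with 5, 4 and 2 for the 3 circRNAs of FBA2, of which the first (Ath_circ_FC3065) was on the opposite strand the second (Ath_circ_FC5334) was exon 5 and the last (Ath_circ_FC5743) lay inside exon 7, and 2 for Ath_circ_FC5605 of FBA1.

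The junctions of 3 Calvin cycle genes are shown because circRNAs of 1 gene used the same splice site there, and Ath_circ_FC2454 of TKL1 was also the highest of the group. Each line gives 20 bases of the 3′ end of the circle in lower case and 20 bases of its 5′ start in capitals, on the strand of the gene in TAIR10. The end of SBPASE exon 5 was joined to the starts of exons 2, 4 and 5, and in TKL1 the start of exon 3 and the end of exon 4 were each used by a pair of circRNAs.
Ath_circ_FC2404 (SBPASE, exons 2 to 5): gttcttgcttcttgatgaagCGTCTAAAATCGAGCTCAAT
Ath_circ_FC2406 (SBPASE, exons 4 to 5): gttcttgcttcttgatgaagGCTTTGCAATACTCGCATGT
Ath_circ_FC2407 (SBPASE, exon 5): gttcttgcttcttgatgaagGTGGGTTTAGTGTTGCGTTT
Ath_circ_FC2454 (TKL1, exon 4): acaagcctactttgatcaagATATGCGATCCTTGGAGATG
Ath_circ_FC2452 (TKL1, exons 3 to 4): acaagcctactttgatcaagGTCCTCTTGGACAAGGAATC
Ath_circ_FC2453 (TKL1, exons 3 to 5): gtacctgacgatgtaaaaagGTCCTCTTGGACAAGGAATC
Ath_circ_FC5016 (GAPB, exon 4): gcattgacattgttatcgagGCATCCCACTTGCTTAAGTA
Ath_circ_FC0646 (GAPB, exons 4 to 5): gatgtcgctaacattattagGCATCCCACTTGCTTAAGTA

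The circRNAs of photorespiration spanned a median of 3 exons, against 1 in each of the other groups. Its parent genes also had more exons, with a median of 12, against 6 in the Calvin cycle and 7.5 among the proteases. The part of exon number in the span was not tested. In the peroxisome, glycolate is oxidised by GOX1 and GOX2, glycolate oxidases that lie next to each other on chromosome 3. GOX2 had 5 circRNAs with 11, 6, 6, 4 and 2 reads, the highest of which was Ath_circ_FC1981 from exons 6 to 10 (chr3:4819459-4820291). Ath_circ_FC1979, with 4 reads, was the exception to the gene's strand and lay on the opposite one, with its ends 4 and 6 bases inside those of Ath_circ_FC1978 (exons 2 to 5, 6 reads). Ath_circ_FC1977 had 6 reads (exons 2 to 3) and Ath_circ_FC1980 had 2 reads (exons 4 to 6). GOX1 had only Ath_circ_FC1982 with 3 reads (exons 2 to 4) and Ath_circ_FC1983 with 2 reads (exons 7 to 11). Both sides of the junctions of Ath_circ_FC1978, Ath_circ_FC1981 and Ath_circ_FC1983 matched a second place in the genome with at most 2 differing bases, so the assignment of their reads to the 2 genes is uncertain. Their transcripts were 85.7% identical over 1580 bases.

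CAT2, a catalase that removes the hydrogen peroxide formed by glycolate oxidase, had 1 circRNA of 3 reads (Ath_circ_FC3004), whose start lay on exon 3 and whose end lay 8 bases short of the boundary of exon 4. GGT1, the glutamate:glyoxylate aminotransferase, had 3 circRNAs, all on exon boundaries. They had 8 reads (Ath_circ_FC0490, exons 12 to 13), 4 reads (Ath_circ_FC0492, exons 3 to 8, with 6 exons the longest run among the members together with one of FTSH11) and 2 reads (Ath_circ_FC0491, exons 6 to 8). None of the 3 was in the mixed list, and both sides of the junction of Ath_circ_FC0492 matched a second place with at most 2 differing bases.

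AGT, the serine:glyoxylate aminotransferase, had the 2 highest values of all members. Ath_circ_FC1190, with 23 reads, joined the end of exon 3 to the start of exon 2 (chr2:5539963-5540935) and carried the start codon and residues 1 to 286 of 401. Ath_circ_FC1191, with 20 reads, contained no exonic base, although it was listed as exonic. It began at the first base of intron 1, and 19 of the 299 bases of the intron were left between its end and exon 2. One other circRNA of the members lay in an intron in this way, Ath_circ_FC3779 of FTSH11, with 4 reads, 2 exonic bases and again 19 bases left before the next exon, but it was listed on the opposite strand. The third circRNA of AGT, Ath_circ_FC5256, had 4 reads in the mixed list and lay inside exon 3. Over all nuclear exonic circRNAs, 140 of 4405 (3.18%) had less than 10% exonic bases. HPR, the hydroxypyruvate reductase that follows AGT, had 2 circRNAs, both in the mixed list and both starting at exon 9, with 4 reads (Ath_circ_FC5243, exons 9 to 10) and 3 reads (Ath_circ_FC0021, exons 9 to 12). The listed value of Ath_circ_FC0021 left out reads of the separate samples.

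In the mitochondrion, the glycine decarboxylase complex and SHM1, a serine hydroxymethyltransferase, convert glycine to serine. GLDP1, the P-protein of the complex, had 5 circRNAs with 6, 4, 3, 2 and 2 reads. Of these, 3 covered neighbouring exons, as exon 7 (Ath_circ_FC2946), exons 8 to 10 (Ath_circ_FC2945) and exon 11 (Ath_circ_FC5083), and Ath_circ_FC2944 overlapped them with exons 8 to 11. Ath_circ_FC5739, with 2 reads in the mixed list, lay apart inside exon 1 with no end on a boundary. All 5 circRNAs of GLDP1 had exonic lengths that were multiples of 3, as had 1856 of the 4405 nuclear exonic circRNAs. Those within exons 8 to 11 overlap and are not separate cases. SHM1 had Ath_circ_FC3045 with 8 reads (exons 6 to 9) and Ath_circ_FC3044 with 5 reads (exons 7 to 9). AT1G11860, the T-protein, stood apart, since both of its circRNAs, Ath_circ_FC0312 with 6 reads and Ath_circ_FC5215 with 4 reads in the mixed list, were on the opposite strand and had no end on a boundary.

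The ammonia released by the complex is fixed again by GS2, the plastid glutamine synthetase, and GLU1, the ferredoxin-dependent glutamate synthase. All 3 circRNAs of GS2 were on boundaries, with 8 reads (Ath_circ_FC4964, exons 6 to 8), 2 reads (Ath_circ_FC3573, exons 4 to 7) and 2 reads (Ath_circ_FC5772, exon 7). GLU1, which with 32 exons had the most of the members, gave Ath_circ_FC0069 with 6 reads (exons 15 to 17), Ath_circ_FC3143 with 3 reads (exons 12 to 14) and Ath_circ_FC3142 with 4 reads on the opposite strand. No circRNA was listed for the first and the last enzyme of the pathway, PGLP1, the phosphoglycolate phosphatase, and AT1G80380, the glycerate kinase, which have 12 and 11 exons. The transcript of PGLP1 was 98.5% identical over 1782 bases to that of its copy AT5G36790, so that reads of either gene may have no single place in the genome. AT1G80380 had no such copy among the annotated transcripts.

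The junctions of the photorespiration genes are given in the same form. They show the pairs with a common splice site and the 2 circRNAs of AGT, of which that of the intron has GT as the first bases of the circle.
Ath_circ_FC1190 (AGT, exons 2 to 3): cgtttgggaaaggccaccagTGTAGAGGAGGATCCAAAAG
Ath_circ_FC1191 (AGT, intron 1): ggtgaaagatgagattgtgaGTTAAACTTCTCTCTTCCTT
Ath_circ_FC1977 (GOX2, exons 2 to 3): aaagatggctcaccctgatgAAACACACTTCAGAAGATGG
Ath_circ_FC1978 (GOX2, exons 2 to 5): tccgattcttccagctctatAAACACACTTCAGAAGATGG
Ath_circ_FC0491 (GGT1, exons 6 to 8): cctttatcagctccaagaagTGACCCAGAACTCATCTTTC
Ath_circ_FC0492 (GGT1, exons 3 to 8): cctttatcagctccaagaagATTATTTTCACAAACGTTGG
Ath_circ_FC5083 (GLDP1, exon 11): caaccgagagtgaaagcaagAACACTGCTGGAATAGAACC
Ath_circ_FC2944 (GLDP1, exons 8 to 11): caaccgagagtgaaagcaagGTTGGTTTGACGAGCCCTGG
Ath_circ_FC2945 (GLDP1, exons 8 to 10): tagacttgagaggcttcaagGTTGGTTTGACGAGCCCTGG
Ath_circ_FC3044 (SHM1, exons 7 to 9): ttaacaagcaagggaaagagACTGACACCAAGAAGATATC
Ath_circ_FC3045 (SHM1, exons 6 to 9): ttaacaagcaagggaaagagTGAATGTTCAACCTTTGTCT
Ath_circ_FC5243 (HPR, exons 9 to 10): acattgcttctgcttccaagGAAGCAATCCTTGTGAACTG
Ath_circ_FC0021 (HPR, exons 9 to 12): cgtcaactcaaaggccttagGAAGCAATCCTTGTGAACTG
Ath_circ_FC3573 (GS2, exons 4 to 7): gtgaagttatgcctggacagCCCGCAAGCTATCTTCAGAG
Ath_circ_FC5772 (GS2, exon 7): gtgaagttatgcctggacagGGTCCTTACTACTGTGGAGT

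**Figure D4:**
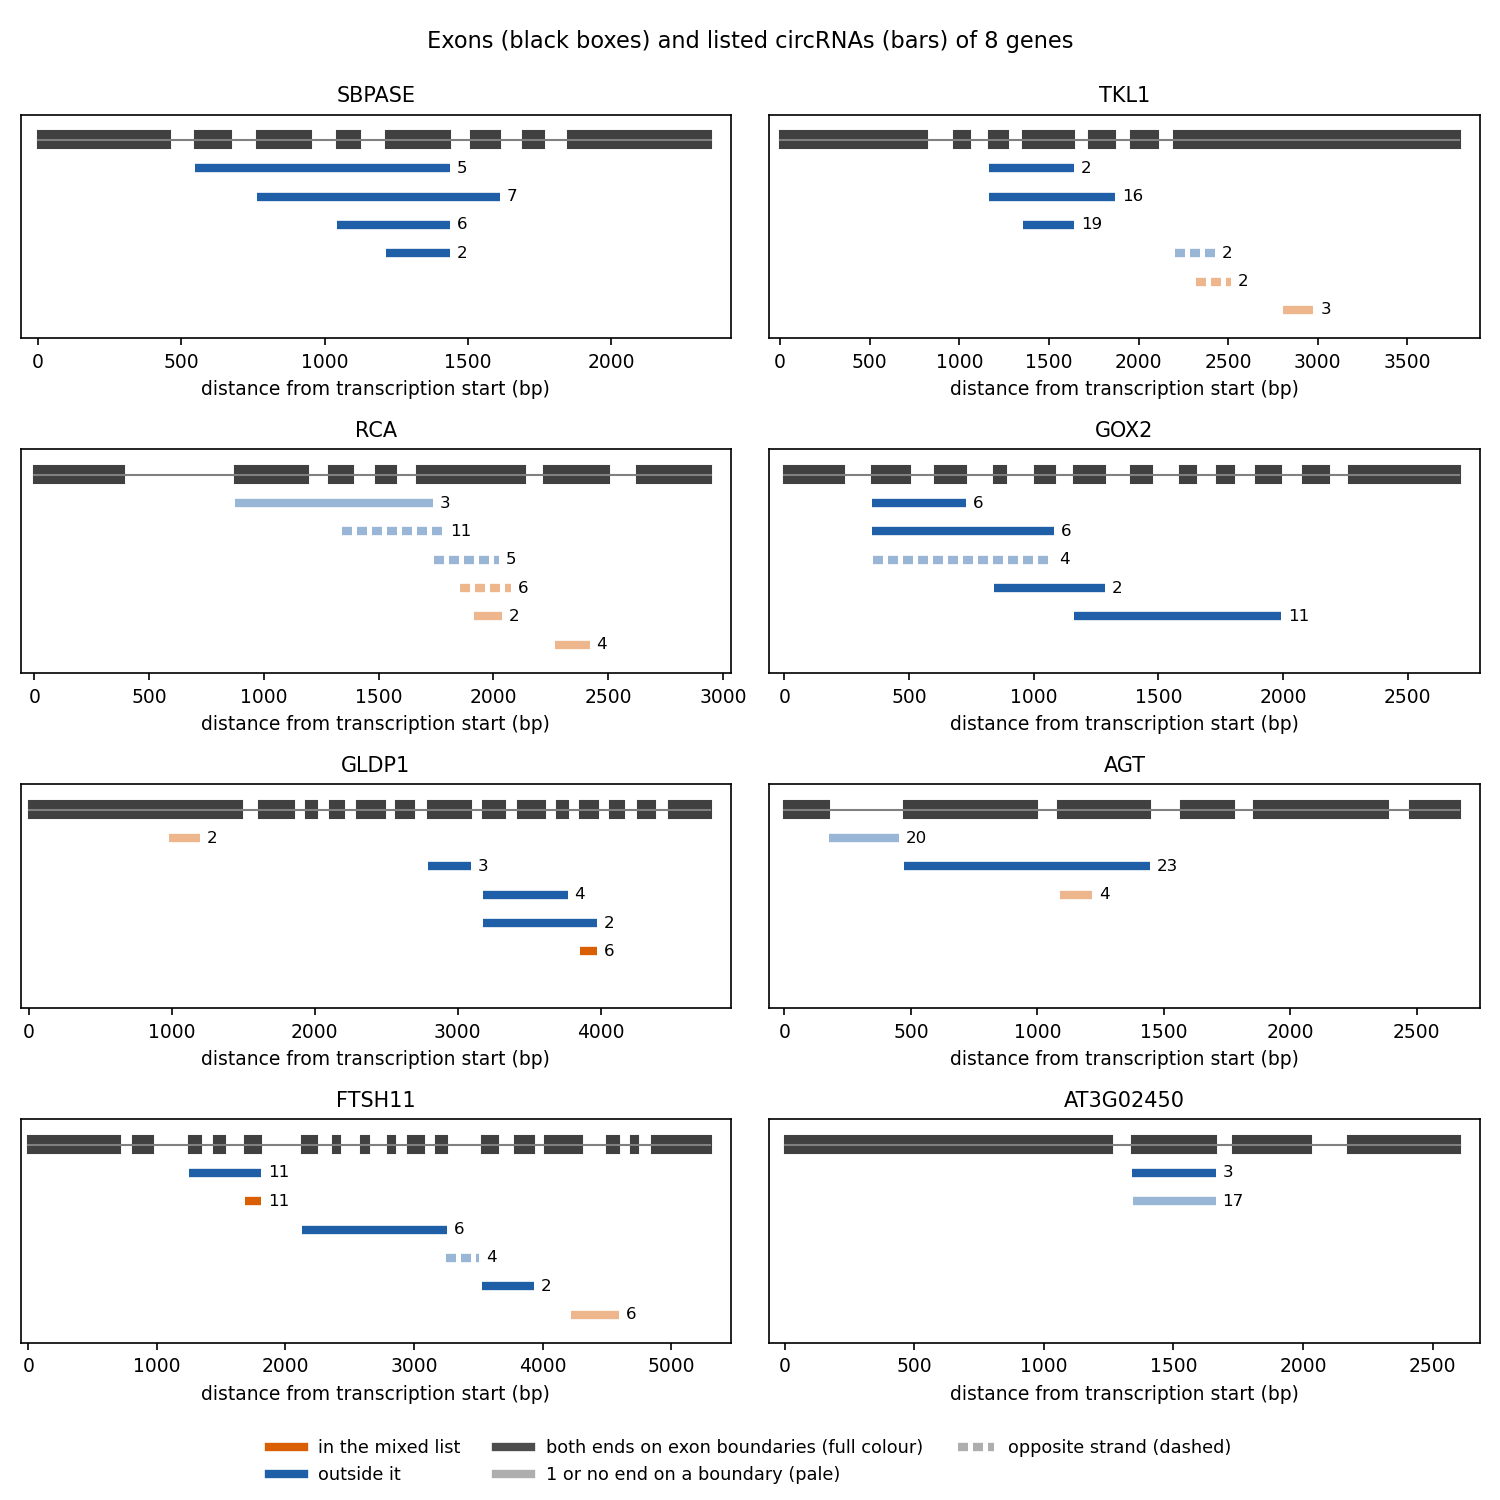
Exons (black boxes) and listed circRNAs (bars, with their reads) of 8 genes along the distance from the transcription start (bp); orange bars are in the mixed list and blue bars outside it, full colour marks both ends on exon boundaries, pale bars 1 or no end, and dashed bars the opposite strand. Of the 4 bars of SBPASE, 3 share the end of exon 5, those of RCA are all pale, and the bar with 20 reads in AGT lies in intron 1.

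Among the proteases, FTSH11 had the most circRNAs. This FtsH protease had 6 of the 14 circRNAs and 17 exons. Ath_circ_FC4871, exon 5 alone, had 11 reads in the mixed list, and Ath_circ_FC3781, exons 3 to 5, had 11 reads outside it. With Ath_circ_FC3780 (exons 6 to 11, 6 reads) and Ath_circ_FC3778 (exons 12 to 13, 2 reads), the circRNAs on exon boundaries covered exons 3 to 13 without a gap. Ath_circ_FC3779, listed on the opposite strand, lay at intron 11, with 2 bases in exon 11. Ath_circ_FC5096, with 6 reads in the mixed list, started 201 bases inside exon 14 and ended on the boundary of exon 15.

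AT3G02450, an FtsH-like gene, gave the highest value of the group. Ath_circ_FC1779 had 17 reads and Ath_circ_FC1780 had 3 reads, and both ended with exon 2 (chr3:503585-503908). The start of Ath_circ_FC1780 was the annotated start of exon 2, and that of Ath_circ_FC1779 lay 4 bases further inside. In the genome, both positions followed an AG, shown in capitals in the window below, where the exon starts after the first AG as annotated and after the second AG in Ath_circ_FC1779.
AT3G02450, start of exon 2 (chr3:503893-503920, strand of the gene): ttttctttgtAGatAGtctcatgtcttc
Ath_circ_FC1779 (AT3G02450, exon 2): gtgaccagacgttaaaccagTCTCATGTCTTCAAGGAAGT
Ath_circ_FC1780 (AT3G02450, exon 2): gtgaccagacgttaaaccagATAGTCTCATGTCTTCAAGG
Ath_circ_FC4871 (FTSH11, exon 5): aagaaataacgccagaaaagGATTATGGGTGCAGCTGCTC
Ath_circ_FC3781 (FTSH11, exons 3 to 5): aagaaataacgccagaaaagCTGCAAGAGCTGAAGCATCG

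Of the 4 FtsH subunits of the thylakoid membrane, 2 were parent genes with 1 circRNA each. VAR2, one of these subunits, had Ath_circ_FC1416 with 2 reads inside its last exon, and VAR1, its partner, had Ath_circ_FC3641 with 4 reads on the opposite strand. FTSH8 and FTSH1, close relatives of VAR2 and VAR1, had none. These 4 genes have 4 or 5 exons. Of the Clp chaperones, CLPC1 had Ath_circ_FC3745 with 3 reads, exon 2 with the start codon, and Ath_circ_FC4996 with 7 reads in the mixed list inside its last exon. ERD1 had Ath_circ_FC3747 with 2 reads (exons 4 to 5) and Ath_circ_FC5367 with 4 reads in the mixed list inside exon 1. HSP93-III, a relative of CLPC1 that also has 10 exons, had no listed circRNA. Its transcript was 80.5% identical to that of CLPC1 over 2462 bases, and those of FTSH1 and VAR1 were 84.1% identical over 1782 bases.

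Sites shared by circRNAs of 1 gene occurred at 13 positions in 11 genes and took in 25 circRNAs, of which 24 had both ends on exon boundaries. The exception was Ath_circ_FC1779. Pairs of circRNAs that covered neighbouring exons occurred 9 times in 4 genes, GOX2, GLDP1, GLU1 and FTSH11. None of the 81 junctions, searched as 60 bases, was found in the linear genome or in an annotated transcript with at most 3 differing bases. Over all nuclear exonic circRNAs, 22 of 4405 (0.499%) were found, so the absence says little about the members in particular. For 63 of the 81, both sides of 30 bases had 1 place in the genome even with 2 differing bases allowed. By group, this held for 31 of 36 in the Calvin cycle, 18 of 31 in photorespiration and all 14 of the proteases. Shared sites, neighbouring exons and these single places were counted for the members only, so they have no background.

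Of 51 other genes of the same pathways, 20 were parent genes (39.2%), which lies between the 85.3% of the 34 genes and the 11.7% of all nuclear protein-coding genes. Their plastid proteases were a wider set than in the 34 genes, since DEG, PREP, EGY1 and SPPA genes were counted with FtsH and Clp. They gave 44 circRNAs, 12 of them in the mixed list and 17 with both ends on exon boundaries (38.6%), against 65.5% of nuclear exonic circRNAs. In this share the order of the groups was another than in the 34 genes. Photorespiration was the lowest, with 4 of 22 (18.2%, 95% Wilson interval 7.31% to 38.5%), the Calvin cycle had 6 of 13 (46.2%, 23.2% to 70.9%) and the proteases 7 of 9 (77.8%, 45.3% to 93.7%). Of these 7, DEG2 and PREP1 gave 1 each and SPPA gave 2, so the protease share does not describe FtsH and Clp alone. Of the 22 of photorespiration, the single gene CAT3 gave 8, none on boundaries, so that share rests in large part on 1 gene. By group, parent genes were 6 of 11 in the Calvin cycle, 7 of 17 in photorespiration and 7 of 23 among the proteases.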

How the data were processed

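The authors converted images with CASAVA 1.8, aligned reads to TAIR10 with TopHat2 after a quality filter (NGS QC Toolkit), detected back-splices with find_circ at no fewer than 2 reads, and found parent genes with bedtools, per the labels and the study's methods. For the mixed sample the deposited value is a raw count of back-spliced reads. For the list of 14 samples the deposited value is a score of whole numbers under a header that calls it a mean. The score was the mixed count in all 1217 circRNAs of the mixed list and otherwise a sum over the separate samples, as found by position in the study's supplementary counts, of which a part was used here. Sequencing depth was not used. The mixed sample was sequenced on another Illumina instrument and with shorter paired reads than the others. The lists were matched by chromosome, start, end and strand, since no circRNA name matched.

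The listed length equalled end minus start for all 5861 circRNAs, so 1 was added to the start. Exons came from RefSeq TAIR10.1, whose nuclear chromosomes have the lengths of TAIR10. All 34 genes matched by locus, and sequences are those of RefSeq TAIR10.1. Boundaries were those of all annotated transcripts of the gene. Exon numbers and residues follow the transcript with the longest coding sequence. The comparison set was the 4405 nuclear circRNAs listed as exonic with an annotated gene. It includes the 81 circRNAs. A further 13 of 4418 had no annotated gene. Junctions were searched with blastn 2.17.0 without gaps. Shares have Wilson 95% intervals. No test was made.

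The 34 genes, the 51 other pathway genes and the alternatives were chosen with earlier results of these data known. Every gene is named, circRNAs are named for genes with 2 or more and for the highest of each group, and junctions are shown for these highest and for shared ends; the intron circle of AGT, the splice site window of AT3G02450 and other named circRNAs were added after their values were seen. On simulated data, 500 of 500 circRNAs on exon boundaries and 0 of 500 moved off them were called, and the search found 200 of 200 linear junctions and 0 of 200 back-spliced ones. The simulated ends and linear junctions were taken from the same annotation that was searched. These counts therefore check the code only and say nothing about the listed circRNAs. Python 3.11.15, numpy 2.4.6, pandas 2.3.3, scipy 1.17.1 and matplotlib 3.10.9 were used.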

Additional observations from a re-analysis of the deposited data

How the results depend on the processing

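The number of genes with a circRNA was 27 at a minimum of 3 reads, 22 at 5 reads and 20 with both ends on exon boundaries, against 29 as listed. It was 27 when every circRNA of the mixed list was left out, also where the separate samples had reads for it. The number of circRNAs fell to 38 at 5 reads and to 44 with both ends on boundaries, against 81, since fewer circRNAs entered. The median of 4 reads became 7 with at least 5 reads and 7 with the highest circRNA of each gene. The share with both ends on boundaries was 54.3% with a tolerance of 2 bp, 55.6% with 5 bp, 63.2% at 5 reads and 61.4% without the mixed list, an alternative added after the data were seen, and it was 0.0% with the start as listed, because the start counts from 0. AG and GT flanked 81.5% of the junctions on the strand of the gene, as the 15 circRNAs of the opposite strand then lacked them. Matching the lists by name gave no circRNA in common. No paired analysis was possible because each condition had 1 library and the lists give no value per separate sample. Read numbers of 2 to 23 limit how finely circRNAs can be ordered.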

Other observations

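Among the 51 other genes of the pathways, the circRNAs were uneven. CAT3, a catalase like CAT2, had 8 circRNAs with 42 reads in all, none with both ends on exon boundaries, while CAT2 had 1. GLU2, the second ferredoxin-dependent glutamate synthase, had 3 circRNAs with 52 reads in all, the highest with 22, and GLDP2, the second P-protein, had 6 with 25 reads in all. RBCS2B, a small subunit of RuBisCO, had 4 circRNAs and none on boundaries, as RBCS1A had none of its 3. AT2G45290, the second transketolase, had 2 circRNAs, both on boundaries. Of the protease genes, which here were not only FtsH and Clp, 7 of 23 gave 9 circRNAs, 7 of them on boundaries. The highest value, 16 reads, belonged to AT1G68660, a ClpS-like adaptor, with no end pair on boundaries.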
